A study of Rattus norvegicus with 36 samples.

Results

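The 100 most counted genes of the rat dorsal striatum, after 10 gene IDs taken as mitochondrially encoded were set aside, held 15.0% ± 0.36 of all counts (SD, n = 9 pools). They were chosen by their level: counts were summed over the 4 technical replicates that a pool had, each gene was put on the counts-per-million scale of its pool (CPM), and the 32402 gene IDs of the count files were ranked by mean CPM over the 9 pools. Their high level is therefore how they were found, and only their spread between pools and between treatments is described below as a result. The files give Ensembl IDs without gene names, and no table at hand paired them, so genes are called by their rank among the 100. For the same reason the roles, lengths and sequences of the genes and the markers of the tissue were not analysed here. The 10 IDs set aside could not be checked against an annotation, and neither could the absence of further mitochondrially encoded genes from the 100.

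RNA was sequenced from Sprague-Dawley rats aged 8 weeks, in 3 treatment groups of 3 pools each, and each pool joined the tissue of a pair of rats killed the day after the last injection. By the labels, Sal–Sal rats received 15 saline injections and Coc–Coc rats 15 cocaine injections. For Sal–Coc rats the labels give 13 saline injections before 3 of cocaine, which exceeds the total of the other groups. The paper describes the same daily number of injections over the same days for all groups, so 13 is given only as the labels' count. The labels call the tissue dorsal striatum, while their extraction text names both nucleus accumbens and caudate putamen. The pools were numbered 5, 6 and 7 in each group and held from 29870775 to 39493867 counts.

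The dorsal striatum is the main input station of the basal ganglia. Most of its neurons are GABAergic projection cells that receive dense dopamine input, and cocaine raises extracellular dopamine by blocking its reuptake. The tissue also holds interneurons, oligodendrocytes, astrocytes, microglia and vessels. In bulk RNA a lower level of a transcript can reflect fewer cells of a type or less RNA per cell, and these cannot be told apart. Reads of a library are shared among all transcripts, so a few abundant ones can take a sizeable part of them. Read counts also grow with transcript length, so the order of ranks is an order of reads and not of molecules.

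The count of reads behind each gene was high. The 100 genes had from 21303 to 606709 counts per pool, and counting alone gave a coefficient of variation (CV, the SD as a percentage of the mean) of 0.182% to 0.609%. They occupied ranks 8 to 108 of the undivided ranking, because 8 of the 10 IDs set aside lay above the last of them. Technical replicates of a pool were nearly as close as counting allows. Chi-square divided by its degrees of freedom, which counting alone brings close to 1, had a mean over the 100 genes of 1.05 to 1.32 in the 9 pools. Between pools the same ratio had a median over the 100 genes of 81.1 among Sal–Sal pools, 128 among Sal–Coc pools and 1043 among Coc–Coc pools, and of 57.4 between Coc–Coc pools 6 and 7. The high ratio of Coc–Coc thus came with its pool 5. Counting alone brings such a median somewhat below 1. At the same spread a pair of pools gives a lower median than a group of 3, so 57.4 is not ranked against the other groups.

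Coc–Coc pool 5 stood apart from the other pools. Relative to the median of the other 8 pools, the median absolute deviation of the 100 genes in this pool was 0.32 on the log2 scale of CPM, a factor of 1.25, against 0.05 to 0.10 in each of the other pools. It held 8 genes at over 1.5 times that median, at ranks 1, 3, 8, 21, 54, 55, 63 and 86, and 7 genes below it by the same factor, at ranks 22, 23, 24, 27, 30, 74 and 94. Of the 8, ranks 54 and 55 are not separate measurements, as described below. No other pool had a gene of the 100 beyond 1.5-fold in either direction. Among the 15884 genes that entered the tests, 14.4% were beyond 1.5-fold in this pool, against 4.68% to 7.22% in the others. Results that rest on this pool are therefore given with and without it, and the cause was not tested.

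The steepness of the ranking was concentrated in its first members. The first gene took 0.845% ± 0.26 of all counts (SD, n = 9), the first 10 took 4.37% ± 0.49, the first 20 took 6.26% ± 0.41 and the first 50 took 10.4% ± 0.36. The next 100 genes together took 6.09% ± 0.11. At the lower edge, ranks 98, 99 and 100 had mean levels of 766 ± 47.0, 762 ± 41.6 and 762 ± 82.2 CPM (SD, n = 9), and the 3 genes that followed, outside the list, had 761 ± 38.7, 758 ± 130 and 757 ± 44.1 CPM. The edge of the list falls within a nearly flat stretch, where neighbouring genes differed by less than the spread between pools.

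**Figure D1:**
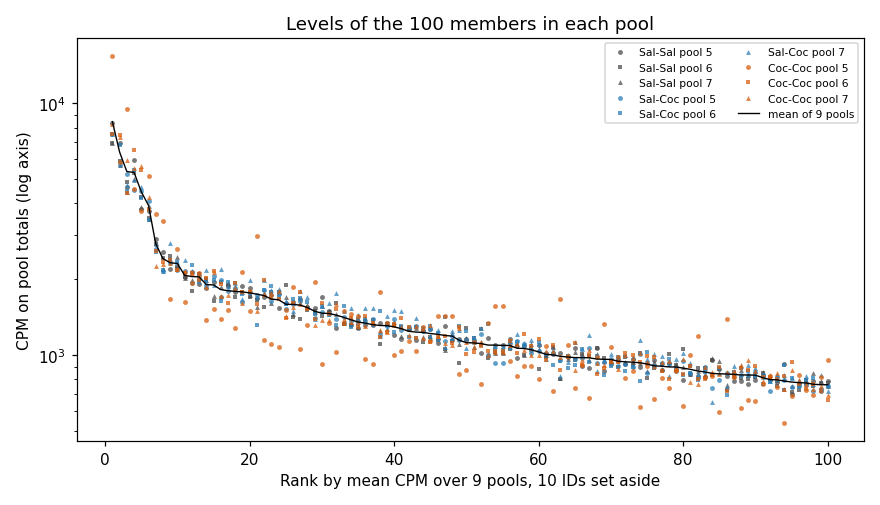
CPM on pool totals (vertical, log axis) against rank (horizontal) for the 100 genes, with a symbol for each of the 9 pools coloured by group and a black line for the mean. The first gene lies between 6928 and 15362 CPM, and orange circles (Coc–Coc pool 5) lie farthest from the line on both sides.

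The gene at rank 1 had 8308, 6956 and 6928 CPM in pools 5, 6 and 7 of Sal–Sal. It had 7554, 7511 and 7560 CPM in those of Sal–Coc, and 15362, 7531 and 8301 CPM in those of Coc–Coc. It led all 9 pools, and 8 of them lay close together while Coc–Coc pool 5 held 2.04 times the median of the others. Its CV was 31.2% over the 9 pools and 6.82% without that pool.

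The gene at rank 3 behaved in a similar way. It had 4654, 4857 and 4420 CPM in Sal–Sal, 5229, 4484 and 4746 CPM in Sal–Coc, and 9437, 4381 and 5954 CPM in Coc–Coc. Its CV was 30.1% over the 9 pools and 10.9% without Coc–Coc pool 5. The Coc–Coc group held both its highest and its lowest pool.

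The genes at ranks 2, 4 and 5 did not have their highest level in Coc–Coc pool 5. Rank 2 had 6923, 5884 and 5690 CPM in Sal–Sal, 5668, 6823 and 5898 CPM in Sal–Coc, and 5852, 7459 and 7346 CPM in Coc–Coc. Rank 4 ran from 4535 CPM in Sal–Coc pool 5 to 6507 CPM in Coc–Coc pool 6. Rank 5 had 3789, 4256 and 3880 CPM in Sal–Sal, 4461, 4210 and 4628 CPM in Sal–Coc, and 3725, 5438 and 5634 CPM in Coc–Coc. For rank 5 the Coc–Coc group therefore held the lowest pool and also the pair of highest ones, and its CV was 15.5% with and 14.9% without Coc–Coc pool 5.

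The remaining genes of the first 10 were at lower levels. Rank 6 ran from 3445 to 5155 CPM, rank 7 from 2248 to 3644 CPM, rank 8 from 2153 to 3399 CPM and rank 10 from 2168 to 2647 CPM, and each of these had its highest level in Coc–Coc pool 5. Rank 9 went the other way, with 1662 CPM in that pool against 2193 to 2790 CPM elsewhere. Ranks 11 to 20 had mean levels between 1765 and 2073 CPM, and Coc–Coc pool 5 was the lowest pool for 7 of these 10 genes, at ranks 11, 14, 15, 16, 17, 18 and 20.

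The order of the first genes changed little between pools. Of the first 10 genes, between 9 and 10 were also among the first 10 of each single pool, and 8 were so in all 9 pools. Of the 100 genes, between 94 and 97 were among the first 100 of each pool except Coc–Coc pool 5, where 85 were, and 77 were in the first 100 of every pool. The farthest displacement was that of the gene at rank 94, which stood at position 175 in Coc–Coc pool 5. When each group was ranked by its own mean, 97 of the 100 genes were among the first 100 of Sal–Sal, 95 among those of Sal–Coc and 95 among those of Coc–Coc.

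The spread between pools was modest for most of the 100 genes. The median CV over the 9 pools was 10.5%, with quartiles of 6.08% and 13.7% and a range of 3.55% to 31.2%. For the next 100 genes the median was 8.70%, and over all 15884 genes it was 11.4%. A CV under 10% was found for 48 of the 100 genes, and for 42.8% of all genes tested. These values are descriptions without a test, and counting error differed between the sets, with a median CV of 0.504% for the 100 and 3.96% for all genes tested.

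Without Coc–Coc pool 5 the median CV of the 100 genes was 5.54%. That of the next 100 genes was then 5.83% and that of all genes tested 9.51%. Within groups the median CV of the 100 genes was 4.46% for Sal–Sal, 5.29% for Sal–Coc and 14.9% for Coc–Coc, and 3.54% between pools 6 and 7 of Coc–Coc. For all genes tested the corresponding medians were 7.27%, 8.07%, 11.96% and 7.34%. The wide spread of the Coc–Coc group in these genes was thus a difference between pool 5 and the other 2 pools.

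**Figure D2:**
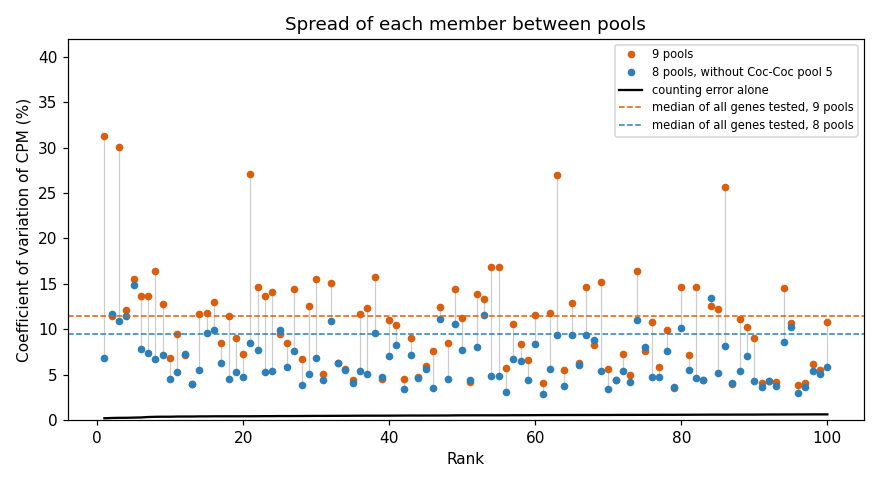
CV of CPM between pools in percent (vertical) against rank (horizontal) for the 100 genes, over 9 pools in orange and over the 8 pools without Coc–Coc pool 5 in blue, with the CV that counting alone gives as a black line and medians of all genes tested as dashed lines. Over 9 pools the 5 genes above 20% stand out, and over 8 pools every gene lies under 15%.

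Only 5 of the 100 genes had a CV over 20%, at ranks 1, 3, 21, 63 and 86, and all 5 were highest in Coc–Coc pool 5. Rank 21 had 2960 CPM there, against 1321 to 1731 CPM in the other pools. Rank 63 had 1668 CPM there, against 804 to 1021 CPM elsewhere. Rank 86 had 1396 CPM there, against 696 to 856 CPM elsewhere. These were also the 5 genes whose highest pool reached at least 2 times the lowest. For 31 further genes that ratio lay between 1.5 and 2, and for 64 it was under 1.5.

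The steadiest genes were at ranks 79, 96, 13, 87 and 61, with CVs of 3.55%, 3.83%, 3.94%, 3.99% and 4.03%. Rank 79 had 867, 915 and 923 CPM in Sal–Sal, 887, 888 and 962 CPM in Sal–Coc, and 873, 863 and 891 CPM in Coc–Coc. Its highest pool was 1.11 times its lowest. Rank 13, the steadiest of the first 20, had 1907, 2100 and 2126 CPM in Sal–Sal, 2006, 1957 and 2103 CPM in Sal–Coc, and 2121, 1988 and 2082 CPM in Coc–Coc. For both genes the 3 groups overlapped throughout.

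Coc–Coc pool 5 was the highest of the 9 pools for 28 of the 100 genes and the lowest for 50. It was thus an extreme for 78.0% of them, compared with 46.7% of all genes tested. Of all 15884 genes tested it was the highest pool for 4836 and the lowest for 2589, the opposite balance. For the next 100 genes it was the highest pool for 30, the lowest for 35 and an extreme for 65.0%. The deepest deficit was at rank 30, which had 918 CPM there against 1372 to 1692 CPM in the other pools. Sal–Coc pool 7 was the highest pool for 33 of the 100 genes and the lowest for 1. It was an extreme for 34.0% of the 100 and for 25.6% of all genes tested. Of all genes tested it was the highest pool for 1327 and the lowest for 2734, again the opposite balance. For the next 100 genes it was the highest pool for 23, the lowest for 6 and an extreme for 29.0%. The leaning of both pools was thus not particular to the 100. Each remaining pool was the highest for 1 to 11 of the 100 genes.

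**Figure D3:**
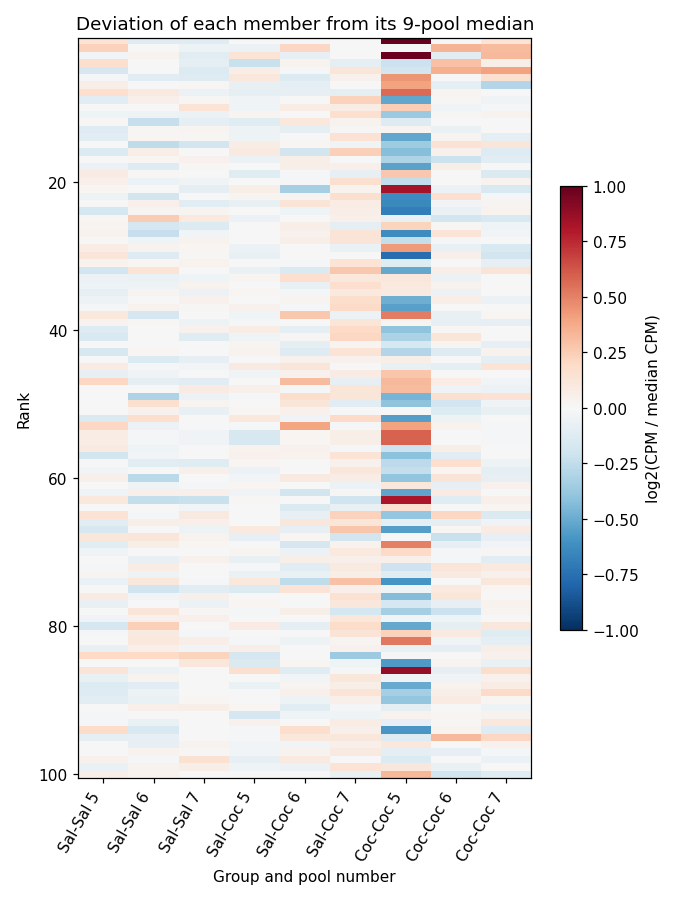
Deviation of each of the 100 genes (vertical, by rank) from its median over the 9 pools in each pool (horizontal), as the log2 ratio of CPM on a colour scale limited to values from -1 to 1. The column of Coc–Coc pool 5 holds the strongest reds (ranks 1, 3, 21, 63 and 86) and blues (rank 30 among them), and Sal–Coc pool 7 is mostly pale red.

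The genes at ranks 54 and 55 carried nearly the same counts in every pool. Rank 54 had 1097, 1025 and 1018 CPM in Sal–Sal, 932, 1054 and 1085 CPM in Sal–Coc, and 1570, 1042 and 1031 CPM in Coc–Coc. Rank 55 had 1094, 1022 and 1015 CPM in Sal–Sal, 930, 1051 and 1083 CPM in Sal–Coc, and 1566, 1039 and 1028 CPM in Coc–Coc. Their ratio averaged 1.003 and varied by 0.117% over the 9 pools, while counting alone gives an SD of 0.734% for the ratio of separately counted genes of this size. They are therefore not read as separate measurements, although both are kept in the counts over the 100 genes. Which gene the reads came from was not established. Among the 4950 pairs of the 100 genes, the next closest pair, ranks 14 and 36, varied in its ratio by 4.80%.

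The share of all counts taken by the 100 genes was compared between treatments. For pools 5, 6 and 7, Sal–Sal had 15.0%, 14.6% and 14.6%, Sal–Coc had 14.7%, 14.9% and 15.4%, and Coc–Coc had 15.6%, 15.2% and 15.2%. The group means were 14.7% ± 0.20, 15.0% ± 0.36 and 15.4% ± 0.24 (SD, n = 3 each). All Coc–Coc pools lay above all Sal–Sal pools, and Sal–Coc overlapped with both. The difference was 0.619 percentage points for Coc–Coc vs. Sal–Sal (two-sided exact permutation test, p = 0.1, the smallest p that 3 pools against 3 allow). It was 0.299 points for Sal–Coc vs. Sal–Sal and 0.320 points for Coc–Coc vs. Sal–Coc (exact permutation test, p = 0.3 for each). Adjusted over the 3 comparisons, the exact permutation p was 0.3 for each.

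The 10 IDs set aside varied more than the 100 genes and entered the same totals. They took 12.7% ± 0.44 of Sal–Sal counts, 14.4% ± 0.89 of Sal–Coc counts and 13.8% ± 2.21 of Coc–Coc counts (SD, n = 3 each), and Coc–Coc held both the lowest pool, pool 5 at 11.4%, and the highest, pool 6 at 15.7%. With these IDs left out of the total, the 100 genes took 16.9% ± 0.30, 17.6% ± 0.28 and 17.8% ± 0.20 (SD, n = 3 each). On that scale Sal–Sal lay below both cocaine groups without overlap, by 0.667 and 0.920 points (exact permutation test, p = 0.1 for each, adjusted p = 0.15), and the cocaine groups overlapped (p = 0.3). An exact permutation test of 3 pools against 3 cannot reach a p of 0.05.

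The first 10 genes were compared in the same way. They took 4.33%, 4.07% and 3.92% of counts in Sal–Sal, 4.08%, 4.14% and 4.17% in Sal–Coc, and 5.55%, 4.46% and 4.61% in Coc–Coc. The Coc–Coc pools did not overlap with those of either other group, with differences of 0.767 points from Sal–Sal and 0.739 points from Sal–Coc (exact permutation test, p = 0.1 for each, adjusted p = 0.15). Without Coc–Coc pool 5 and with the same 10 genes, these differences were 0.430 and 0.402 points, still with no overlap. For all 100 genes the difference from Sal–Sal was then 0.479 points and that from Sal–Coc 0.181 points. Both sets were ranked on the mean of all 9 pools, which favours genes high in Coc–Coc pool 5. Rank 8 was within the first 10 of every other pool but at positions 11, 11 and 14 in the Sal–Coc pools. The shares thus describe sets chosen on the same values and are no independent evidence of a treatment difference. The first gene alone took 1.54% of counts in Coc–Coc pool 5 and from 0.693% to 0.831% in the other 8 pools.

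**Figure D4:**
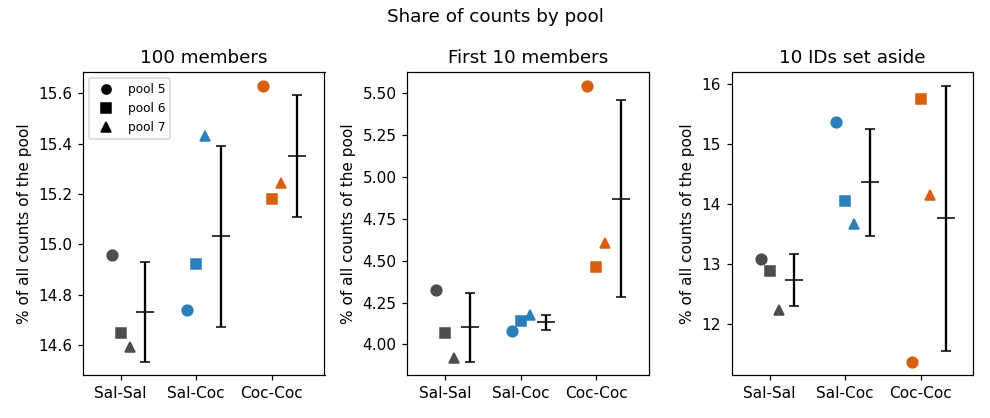
Share of all counts of a pool in percent (vertical, axes not starting at 0 and on a different scale in each panel) for the 100 genes, the first 10 of them and the 10 IDs set aside, by group (horizontal), with a symbol per pool and the mean with SD (n = 3) beside it in black. The Coc–Coc pools lie above the Sal–Sal pools for the 100 genes (15.2% or more against 15.0% or less) and for the first 10, while the IDs set aside spread widely in Coc–Coc.

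Levels were then compared gene by gene with edgeR's quasi-likelihood test, fitted to all 15884 genes and 9 pools on TMM-scaled libraries, with p-values adjusted over all genes. Sal–Coc against Sal–Sal is called the single-day comparison here, Coc–Coc against Sal–Sal the repeated-cocaine comparison, and Coc–Coc against Sal–Coc the schedule comparison. Of the 100 genes, 0 passed an adjusted p of 0.05 in any of the 3, and the share of all genes that passed was 0.0% in each. The lowest adjusted p among the 100 was 0.452, 0.685 and 0.692 in that order. DESeq2 called 1, 0 and 0 of the 100, where it called 0.389%, 0.145% and 0.00857% of all genes for which it gave an adjusted p.

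The size of the differences was bounded by the test. The 95% interval of the log2 fold change had a median half-width of 0.26 over the 100 genes in each comparison, a factor of 1.20. The interval lay within 1.5-fold in both directions for 97 genes in the single-day, 92 in the repeated-cocaine and 84 in the schedule comparison, and within 2-fold for all 100 in each comparison. Over all genes tested the shares within 1.5-fold were 69.9%, 69.4% and 68.6%. These intervals are not adjusted for the number of genes. The farthest bound of any of the 100 genes was 1.56-fold in the single-day, 1.997-fold in the repeated-cocaine and 1.89-fold in the schedule comparison. That of the repeated-cocaine comparison was only just inside 2-fold. Each interval used a spread estimated over the pools of all groups together. Within groups the median CV of the 100 genes was 14.9% for Coc–Coc, against 4.46% for Sal–Sal and 5.29% for Sal–Coc. The intervals can thus be too narrow where Coc–Coc is compared, and a 2-fold difference is not excluded there.

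In the single-day comparison, which asks what a last day of cocaine changed, 2 of the 100 genes had an unadjusted p under 0.05, against 7.96% of all genes. Fold changes of the 100 ran from -0.32 to 0.27 on the log2 scale, with a median of 0.10 and a median SE of 0.12. Of the 100 genes, 82 had a higher and 18 a lower fitted level in Sal–Coc, where 53.0% of all genes were higher and the median over all genes was 0.01. With pool totals in place of TMM scaling 68 were higher. Sal–Coc and Sal–Sal pools had no overlap for 22 of the 100 genes in TMM-scaled CPM, near the 18.4% of all genes. For 21 of these Sal–Coc was the higher group, which held for 8.86% of all genes. The direction was thus uneven among the 100, with no single gene past the threshold in edgeR. The 82 genes are not independent measurements, since they come from the same 6 pools.

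Rank 33, ENSRNOG00000000571, was the gene that DESeq2 called in this comparison. It had 1314, 1308 and 1299 TMM-scaled CPM in Sal–Sal, 1451, 1561 and 1530 in Sal–Coc, and 1458, 1385 and 1404 in Coc–Coc. On this scale both cocaine groups lay above Sal–Sal without overlap. In CPM on pool totals Coc–Coc overlapped with Sal–Sal, with 1331 in Coc–Coc pool 6 against 1328 to 1346 in Sal–Sal. The log2 fold change for Sal–Coc vs. Sal–Sal was 0.21 ± 0.07 (SE), with an adjusted p of 0.508 in edgeR and 0.0305 in DESeq2.

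Rank 84, ENSRNOG00000058561, had the smallest p of the 100 genes in any comparison. It had 940, 941 and 936 TMM-scaled CPM in Sal–Sal, 757, 830 and 664 in Sal–Coc, and 801, 863 and 868 in Coc–Coc. The Sal–Sal pools lay within 6 CPM of one another and above all pools of both cocaine groups. The log2 fold change for Sal–Coc vs. Sal–Sal was -0.32 ± 0.09 (SE), with an adjusted p of 0.452 in edgeR and 0.0693 in DESeq2. Ranks 44 and 75 had the smallest p after ranks 84 and 33, with log2 fold changes of 0.15 ± 0.07 and 0.18 ± 0.10 (SE) and adjusted p of 0.65 and 0.704 in edgeR.

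In the repeated-cocaine comparison 7 of the 100 genes had an unadjusted p under 0.05, against 7.18% of all genes, 5 of them with a higher and 2 with a lower level in Coc–Coc. Fold changes ran from -0.22 to 0.53 on the log2 scale with a median of 0.03, and 57 genes were higher, compared with 53.3% of all genes. The direction of this majority turned to 47 higher genes with pool totals in place of TMM scaling. The pools did not overlap for 12 of the 100 genes, where 12.6% of all genes had no overlap, and Coc–Coc was the higher group for 8 of them, compared with 6.5% of all genes. The counts of the 100 in this comparison were thus close to those of all genes.

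Rank 6, ENSRNOG00000046005, had the smallest p of the 100 genes in this comparison. It had 3681, 3462 and 3348 TMM-scaled CPM in Sal–Sal, 4202, 3436 and 3996 in Sal–Coc, and 5005, 3946 and 4274 in Coc–Coc. The Coc–Coc pools lay above the Sal–Sal pools, and Sal–Coc overlapped with both. The log2 fold change was 0.33 ± 0.11 (SE), with an adjusted p of 0.685 in edgeR and 0.332 in DESeq2, and without Coc–Coc pool 5 it was 0.23.

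Rank 25, ENSRNOG00000019834, had a lower level in Coc–Coc. It had 1590, 1864 and 1646 TMM-scaled CPM in Sal–Sal, 1563, 1586 and 1686 in Sal–Coc, and 1470, 1455 and 1443 in Coc–Coc. The Coc–Coc pools were close together and below all pools of the other groups. The log2 fold change for Coc–Coc vs. Sal–Sal was -0.22 ± 0.08 (SE), with an adjusted p of 0.685 in edgeR and 0.367 in DESeq2, and it was -0.23 without Coc–Coc pool 5.

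Ranks 1 and 3 had the largest fitted fold changes of the 100 genes in this comparison, and both rested on Coc–Coc pool 5. Rank 1 had a log2 fold change of 0.52 ± 0.22 (SE) with all pools and 0.16 without that pool. Rank 3 had 0.53 ± 0.21 (SE) with all pools and 0.22 without it. For both genes the groups overlapped and the adjusted p was 0.685 in edgeR.

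In the schedule comparison, which sets repeated cocaine against a last day of it, 1 of the 100 genes had an unadjusted p under 0.05, against 6.93% of all genes. Fold changes ran from -0.28 to 0.44 on the log2 scale with a median of -0.07, and 36 genes were higher and 64 lower in Coc–Coc, where 52.6% of all genes were higher. The pools did not overlap for 9 of the 100 genes, where 10.6% of all genes had no overlap, and Coc–Coc was the higher group for 2 of them, compared with 5.08% of all genes. The gene with the smallest p was at rank 17, with 1845, 1954 and 1923 TMM-scaled CPM in Sal–Coc and 1469, 1679 and 1751 in Coc–Coc. Its log2 fold change was -0.22 ± 0.08 (SE), with an adjusted p of 0.692 in edgeR. Ranks 8, 66 and 57 followed, with log2 fold changes of 0.29 ± 0.13, -0.17 ± 0.08 and -0.24 ± 0.12 (SE) and the same adjusted p in edgeR. Without Coc–Coc pool 5 the log2 fold change was -0.15 for rank 17, 0.12 for rank 8, -0.13 for rank 66 and -0.11 for rank 57, so those of ranks 8 and 57 rested largely on that pool. The comparisons share their groups, so their fold changes are not independent.

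**Figure D5:**
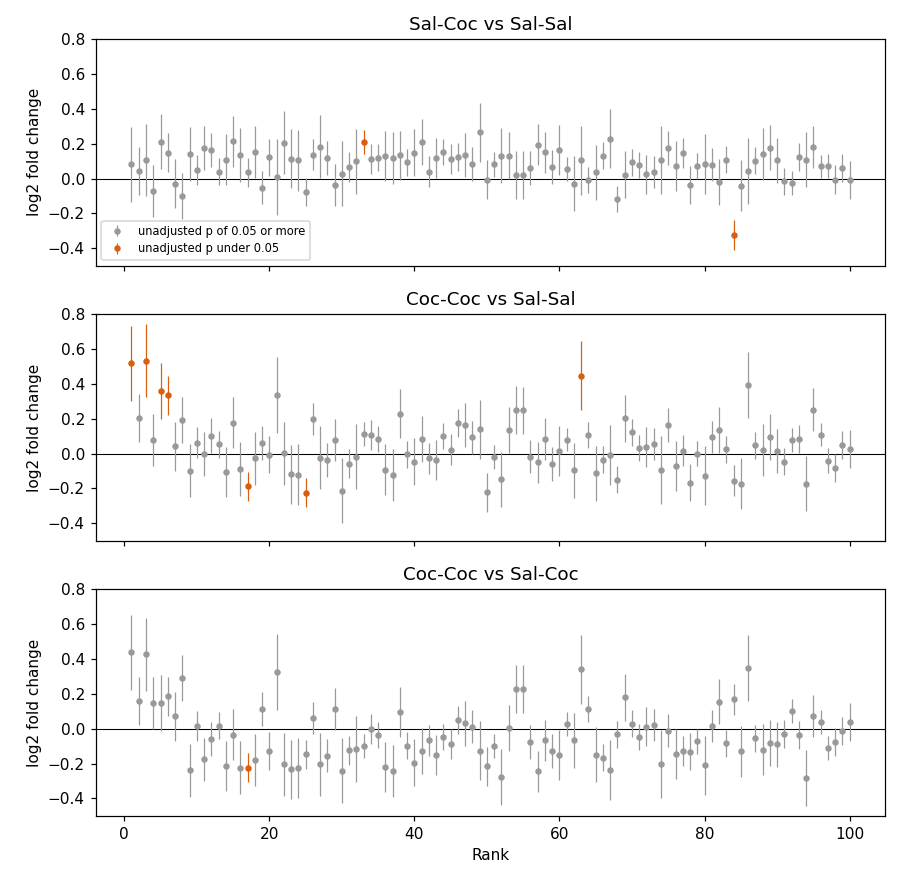
Log2 fold change of each of the 100 genes with its SE (vertical) against rank (horizontal) in the 3 comparisons, with genes at an unadjusted p under 0.05 in orange. The upper panel lies mostly above 0 (82 of 100 genes), and in the middle and lower panels the first ranks reach about 0.5 and 0.4 with wide errors.

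Coc–Coc pool 5 enters the spread estimated for every comparison, and leaving it out changed the tests for the 100 genes. In edgeR 0 of the 100 genes passed in any comparison, where 0, 4 and 0 of all 16019 genes tested passed. The lowest adjusted p among the 100 was 0.184, 0.0906 and 0.872, in the order above. The number with an unadjusted p under 0.05 was 18 in the single-day comparison, where all genes gave 12.3%, and 17 of these were higher in Sal–Coc, compared with 5.22% of all genes. It was 17 in the repeated-cocaine comparison, where all genes gave 6.5%, and 15 of these were higher in Coc–Coc, compared with 3.41% of all genes. In the schedule comparison it was 6, where all genes gave 5.51%, and 5 of these were higher, compared with 3.24% of all genes. Genes with a higher fitted level then numbered 82, 81 and 44 of the 100, against 53.0%, 50.7% and 49.8% of all genes. In the repeated-cocaine comparison the number of higher genes among the 100 thus went from 57 with Coc–Coc pool 5 to 81 without it.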

How the data were processed

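The labels describe RNA-seq of poly(A) RNA in 36 samples, which are 9 pools with 4 technical replicates each. The deposited files hold raw counts, whole numbers of reads per Ensembl gene, which the authors made by base calling with bcl2fastq 2.18.0.12, alignment with STAR, removal of alignments to more than 1 place and counting with HTSeq 0.5.3 (versions from the submitters' processing notes). Genes with near-identical copies are undercounted by that removal.

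Technical replicates were summed per pool. Levels, shares and CVs used CPM on pool totals, and differential expression used edgeR 4.0.16 in R 4.3.3: filterByExpr (minimum count 10, minimum total 15, 15884 genes), TMM scaling, a mean per group over all 9 pools, glmQLFit and two-sided glmQLFTest, with Benjamini-Hochberg adjustment over all genes in each comparison and a threshold of 0.05. DESeq2 1.42.0, other scalings and filters, the 6 pools compared, a replicate block, technical replicate a and leaving out each pool were alternatives, and pool totals without scaling was added after the data were seen. Shares were tested by exact permutation over pools. Code was tested on simulated data. Counts per gene and pool were high, and intervals and CVs from counting cover counting error only. P-values measure the spread between pools of different rats.

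The 100 genes and the lists were chosen with earlier results of these data known. Genes given with values were the first 20 ranks, the edge of the list, the 4 smallest p-values per comparison and the 5 largest and smallest CVs. Genes far from the median in Coc–Coc pool 5, and ranks 54 and 55, were added after their values were seen. The IDs matched no gene name, so lists of marker genes were not tested.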

Additional observations from a re-analysis of the deposited data

How the results depend on the processing

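Of the 100 genes, edgeR called 0 in each comparison under every scaling and filter tried, and from 0 to 0 when each pool was left out in turn. DESeq2 called 1 in the single-day comparison, at rank 33 (log2 fold change 0.21, adjusted p = 0.0305), and 0 in the others. The correlation of same-numbered pools ran from -0.19 to 0.16, so the numbers did not pair the pools, and with the number as a replicate block 0 genes were called and 2, 6 and 4 had an unadjusted p under 0.05, in the single-day, repeated-cocaine and schedule comparisons. These last counts moved most with single pools, from 2 to 18, from 1 (without Sal–Sal pool 7) to 17, and from 0 (without Sal–Coc pool 7) to 16 (without Coc–Coc pool 6), and the highest in the first 2 comparisons was without Coc–Coc pool 5. Fitted to the 6 pools compared, they were 18, 2 and 0. The share of all genes under that unadjusted p moved as well. It was 7.96%, 7.18% and 6.93% with all pools, against 12.3%, 6.5% and 5.51% without Coc–Coc pool 5. For the other alternatives this share is not given, so the changes in these counts are not read as particular to the 100. Genes of the 100 higher in the repeated-cocaine comparison turned from 57 to 47 with pool totals and to 46 without Coc–Coc pool 6, over a range of 46 to 81 when pools were left out. Genes of the 100 higher in the single-day comparison stayed between 68 and 84. The difference in share ran from 0.0987 to 0.445 points in the single-day, from 0.479 to 0.732 in the repeated-cocaine and from 0.174 to 0.52 in the schedule comparison when pools were left out. The first was 0.0987 without Sal–Coc pool 7. The median CV, 10.5%, ran from 5.54% without Coc–Coc pool 5 to 11.1%. Rankings by median CPM, TMM-scaled CPM, technical replicate a or without a pool kept 98 to 100 of the 100 genes. The 12 fold changes given by rank kept their direction in all 228 alternatives. Ranking per length was not run, because no lengths were at hand. The cause of these changes was not tested.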
